A study of Drosophila melanogaster with 72 samples.

Results

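In Drosophila embryos, 580 RNAs that carry only a systematic number (CG followed by digits) in the deposited tables were abundant at 1 to 1.5 h, had largely gone by 2.5 to 3 h, and stayed when RNA polymerase II was blocked. They were chosen on TPM, a length-normalised share of all transcripts, averaged over the 2 libraries of each group. The rule asked for at least 10 TPM in control embryos at 1 to 1.5 h, a control level at 2.5 to 3 h of at most 0.2 times the earlier one, and a level under α-amanitin at 2.5 to 3 h of at least 0.7 times the earlier one. Of 16680 rows, 7481 had such a number, 2479 of these reached 10 TPM, 594 of these were cleared in controls, and 580 of those were kept under α-amanitin, a toxin that stops RNA polymerase II. The other 14 cleared RNAs fell short of 0.7 times, and no unnamed row of at least 10 TPM fell below 0.35 times under α-amanitin. All 580 were protein coding in the Ensembl annotation. "Unnamed" describes the label in the tables, since 189 of them now have a gene symbol in the reference annotation, used here where it exists.

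A fly embryo starts on RNA that the mother loads into the egg, while its own genome is nearly silent. Maternal RNA is then removed by factors already in the egg and, later, by factors that the embryo has to transcribe itself, among them microRNAs and other decay factors. Integrator is a nuclear complex that cuts nascent RNA at RNA polymerase II, and IntS11 is its endonuclease, held in a cleavage module with IntS9 and IntS4.

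The series was designed to ask how IntS11 affects zygotic gene activation, from RNA-seq of total, rRNA-depleted RNA. It holds 60 embryo libraries, 2 per group, in 5 sets, and 12 larval libraries from WT and a zygotic mutant at 24, 48 and 72 h after egg laying. In the first and second sets, a mutant labelled IntS11 mislocalized or IntS9 mislocalized was compared with WT at 0 to 0.5 h, 1 to 1.5 h and 2.5 to 3 h. An IntS11 knockdown (KD) was compared with its own WT at the same 3 windows. The rescue set held WT, IntS11 mislocalized, and the lines labelled FlagIntS11WT Rescue and FlagIntS11E203Q Rescue at 1 to 1.5 h and 2.5 to 3 h, and the last set held α-amanitin embryos and their controls at these windows. E203Q exchanges a glutamate of IntS11, and the labels give neither the promoters or drivers of the transgenes and the knockdown, nor the number of embryos pooled, nor whether the libraries of a group came from separate collections. The p-values therefore measure the spread between these libraries, which may be technical.

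Total estimated counts per embryo library lay between 2061575 and 21331201, with the lowest in the WT of the knockdown set, at 2061575 to 2590455. The targeted gene followed the labels: IntS11 stood at 0.60 to 2.73 TPM in the knockdown against 38.2 to 45.5 TPM in its WT, and at 830 to 1015 TPM in the Flag lines. At 2.5 to 3 h the 10 markers of the first zygotic wave summed to 2611 to 7510 TPM in WT and control embryos. They reached 323 to 757 TPM in mislocalized IntS11, 57.9 and 73.4 TPM in mislocalized IntS9, 109 and 137 TPM in the knockdown, and 68.3 and 70.3 TPM under α-amanitin. A few libraries stood apart. The knockdown libraries gave 15.7% to 25.5% of their counts to the 7SL RNA, against 4.14% to 7.02% in their WT. Markers of older embryos summed to 748 and 775 TPM in the knockdown set's WT at 2.5 to 3 h, and to 91.6 and 113 TPM in the WT of the IntS11 set, against 22.8 to 36.7 TPM in the other WT and control embryos. At 1 to 1.5 h the first zygotic wave markers summed to 1140 and 1346 TPM in the WT of the IntS11 set, against 109 to 942 TPM in the other WT and control embryos, and the median member there had 19.6 TPM against 30.6 to 40.3 TPM. Eggshell genes summed to 49.7 and 57.3 TPM in the rescue set's mislocalized embryos at 2.5 to 3 h. Their part in the results below was not tested, and in whole embryos fewer cells of a type and less RNA per cell cannot be told apart.

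The values behind the choice are a description. The median member went from 40.3 to 3.93 TPM in controls and from 38.2 to 33.2 TPM under α-amanitin, and the median ratio of the windows was 0.111 and 0.878. The most abundant member, CG2852, a cyclophilin-type prolyl isomerase, had 955 and 755 TPM in control libraries at 1 to 1.5 h, 151 and 171 TPM at 2.5 to 3 h, and 791 and 775 TPM at 2.5 to 3 h under α-amanitin. Just inside the TPM minimum lay CG30491 (10.83) and CG42674 (10.955), and just outside it CG17544 (9.995). The nearest control ratios inside were those of CG16717 (0.1996) and CG17598 (0.1994), and outside those of CG8230 (0.20003) and Dus4 (0.2002). Under α-amanitin, CG17202 (0.714) and CG11655 (0.718) lay inside, and CG14931 (0.687) and CCDC53 (0.685) outside.

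The X chromosome held 139 of the 580 genes (24.0%), against 17.1% of the 8804 genes tested in the IntS11 set, 19.9% of 719 genes with a name that met the same rule, and 14.7% of 870 unnamed RNAs of at least 10 TPM that controls kept (ratio of at least 0.7). The median member's annotated transcript was 1959.5 bases long with a 3′ UTR of 307.5 bases, and 54 members had a single exon. Named genes under the same rule were longer (2487 and 375 bases), and unnamed RNAs that controls kept were shorter (1549.5 and 199.5 bases). No test was made of these differences.

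To see whether the RNAs were also cleared in embryos that played no part in their choice, the WT of the other 4 sets was examined. Members fell between 1 to 1.5 h and 2.5 to 3 h almost without exception: 576 in the IntS11 set, 577 in the IntS9 set, 570 in the knockdown set and 578 in the rescue set passed the test downwards (edgeR's quasi-likelihood test, Benjamini-Hochberg-adjusted over all genes, threshold 0.05). The share of all genes tested that fell was 37.6%, 39.8%, 32.6% and 41.8%. Median log2 changes were -1.90, -2.12, -2.15 and -2.49. The median ratio of TPM was 0.201, 0.160, 0.172 and 0.125, and 286, 366, 376 and 514 members met the 0.2 limit again. All 580 members passed the low-count filter in every set.

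**Figure D1:**
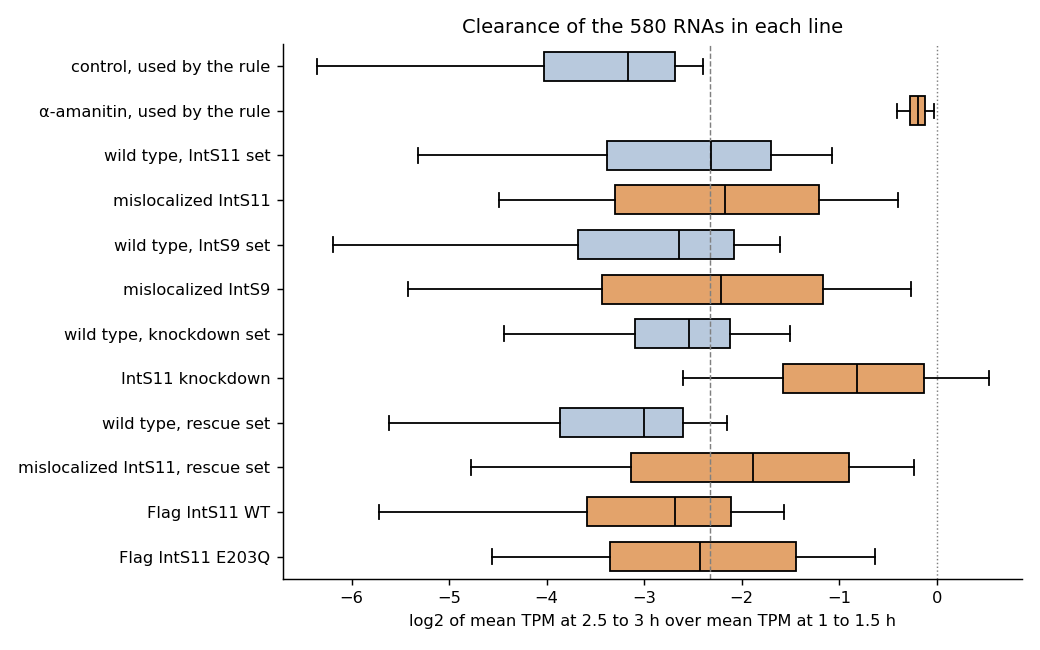
Ratio of mean TPM at 2.5 to 3 h over 1 to 1.5 h (log2 axis) for the 580 members in each line; boxes give the median and quartiles, whiskers the 5th and 95th percentiles, and the dashed and dotted lines a ratio of 0.2 and of no change. WT and control boxes are blue. The control box lies lowest and the α-amanitin box near no change by choice of the members, the WT medians of the other 4 sets run from 0.125 to 0.201 with FlagIntS11WT (0.156) and FlagIntS11E203Q (0.185) among them, and the IntS11 knockdown has the highest median (0.568) of the lines the rule did not use.

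Part of this loss had begun before 1 to 1.5 h. Between 0 to 0.5 h and 1 to 1.5 h, 327 members fell and 1 rose in the WT of the IntS11 set (median log2 -0.34; 16.8% of all genes fell and 15.5% rose). The member that rose was CG32939, whose control libraries disagreed at 1 to 1.5 h. In the WT of the IntS9 set 355 fell and 17 rose (median -0.24, 25% of all genes fell and 16.2% rose). In the shallow WT of the knockdown set 9 fell (median -0.15, 0.733% of all genes fell), with 0 to 3 when any of its 4 libraries was left out and 75 when these 4 were fitted alone. The share of all genes under these alternatives is not given here.

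When IntS11 was mislocalized, the members divided at 2.5 to 3 h. Compared with WT, 297 were higher and 196 lower, where 30.1% of all genes tested were called higher and 53.2% lower (edgeR, adjusted p under 0.05). With mislocalized IntS9, 360 members were higher and 165 lower, against 40.4% and 43% of all genes. In the rescue set's mislocalized IntS11 embryos, 394 were higher and 118 lower, against 40.8% and 41.1% of all genes. The median log2 difference of the members was 0.40, 0.81 and 1.13, which lay 0.78, 0.83 and 1.13 above the median of all genes. The division also stood on the deposited TPM, a comparison added after seeing the data, where members with no overlap between the 2 mutant and the 2 WT libraries were 392 higher and 160 lower for IntS11, 391 and 159 for IntS9, and 426 and 114 in the rescue set. On that scale the shares of all genes were 53.2% and 35%, 48.4% and 37.7%, and 54.2% and 36.6%. The scale matters for small changes in the IntS11 set: 13 members called lower there had higher TPM. With library totals as the scale the median over all genes went from -0.38 to -0.02, and 346 members were higher and 169 lower. The share of higher calls among all calls went from 36.2% to 49.4%. This share, here and below, is taken over all genes tested and not over the members.

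The 2 main sets shared no library, and the same members moved in both. Of the 297 higher with mislocalized IntS11, 291 were higher with mislocalized IntS9, which is 98.0% of the first list and 80.8% of the second. Of the 196 lower, 163 were lower (83.2% and 98.8%). Across the 580 members, Spearman's rho between the 2 log2 differences was 0.94 (a description: members share each library). The overlap of calls over all genes tested was not counted, for these lists or for those compared further below. No overlap or correlation is therefore read as particular to the members. In all 3 mislocalization comparisons together, 288 members were higher and 112 lower, and 40 were higher in at least 1 and lower in another.

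**Figure D2:**
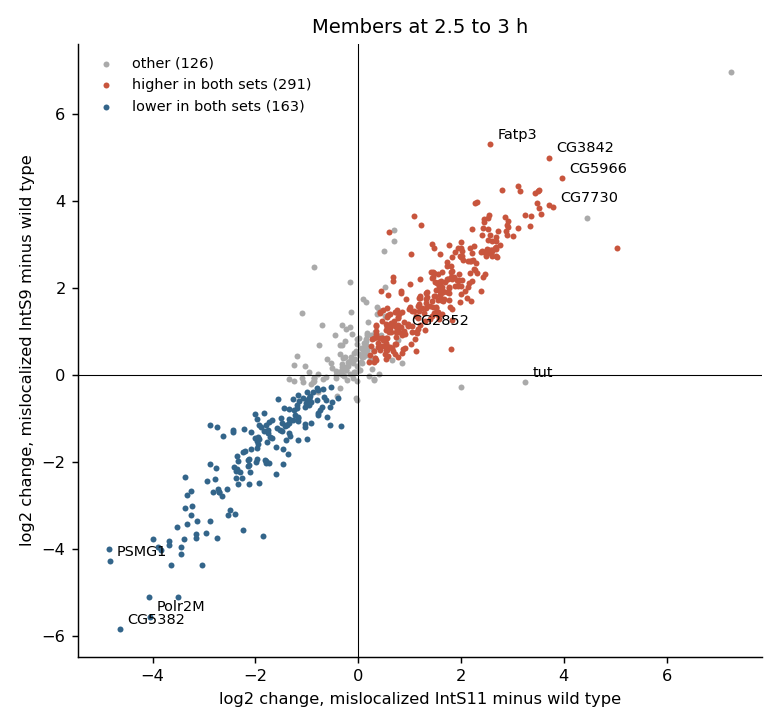
log2 difference from WT at 2.5 to 3 h in the mislocalized IntS11 set (x axis) and the mislocalized IntS9 set (y axis), 1 point per member, coloured by edgeR calls. Points run along the diagonal with 291 higher and 163 lower in both sets; tut, higher with IntS11 alone, lies off it.

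Of the 5 largest log2 differences in the IntS11 set, 3 were of uncertain RNAs. CG32939 (7.26 ± 2.05), antisense to Unc-115a, had 0.55 and 44.6 TPM in the control pair at 1 to 1.5 h, so its libraries disagreed where it was chosen. CG43107 (5.04 ± 0.58), which overlaps an antisense RNA, reached 8 and 7.86 TPM from 0 and 0.26. CG43954 (4.46 ± 2.00, edgeR adjusted p = 0.077) shares its strand with Lasp and did not pass the test.

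The next was CG5966, a gene of the triglyceride lipase family on the X chromosome (dm6, X:5988791-5992640). Its TPM at 2.5 to 3 h was 1.43 and 1.33 in WT and 33.3 and 34.7 in mislocalized IntS11, and 1.05 and 1.3 in WT and 26.7 and 33.3 in mislocalized IntS9. No library of a mutant came near its WT. In the α-amanitin embryos that chose the members it had 26.2 and 24.3 TPM, and in their controls 1.15 and 1.31. The log2 differences were 3.97 ± 0.12 (SE, n = 2 against 2) and 4.52 ± 0.09, with edgeR adjusted p of 5.8e-14 and 4.3e-20.

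CG3842, a short-chain dehydrogenase (X:6337762-6343731), had 2.16 and 2.17 TPM in WT against 44.3 and 47.9 in mislocalized IntS11, and 1.98 and 2.44 against 74.0 and 87.6 in the IntS9 set. CG7730 (3L:17027515-17029814), for which no role is given here, had 3.11 and 3.37 against 66.8 and 75.6, and 4.29 and 4.66 against 67.0 and 82.6 TPM. Both were separated from WT without overlap, by log2 differences of 3.71 ± 0.11 and 3.78 ± 0.10 in the IntS11 set. CG7730 shares exon sequence with Ilp8 on the opposite strand, and the sources used here do not say if the counting took strand into account.

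MCU, the pore of the mitochondrial calcium uniporter, rose from 5.16 and 5.37 to 59.6 and 65.3 TPM with mislocalized IntS11 and from 5.37 and 5.34 to 65.9 and 87.6 TPM with mislocalized IntS9. The α-amanitin libraries, which chose the members, had 62.9 and 58.2 TPM of MCU at the same window. Fatp3, a fatty acid transport protein, rose further with IntS9 (0.23 and 0.41 to 13.2 and 15.8 TPM) than with IntS11 (0.69 and 0.72 to 6.71 and 6.66 TPM).

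At the other end, members had less RNA in the mutants than in WT. PSMG1, a proteasome assembly chaperone (3R:5793308-5794317), had 17.7 and 19.0 TPM in WT and 1.00 and 1.04 TPM in mislocalized IntS11, and 17.0 and 17.1 against 0.96 and 1.03 TPM in the IntS9 set. In the α-amanitin embryos that chose the members PSMG1 stood at 79.0 and 80.6 TPM, above both, and a level kept there is part of the rule. The differences were -4.84 ± 0.23 and -4.28 ± 0.15 on the log2 scale, with edgeR adjusted p of 1.1e-11 and 3.8e-16.

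Polr2M (3R:19229463-19230832), whose human counterpart binds RNA polymerase II, had 9.80 and 11.3 TPM in WT against 1.01 and 1.00 in mislocalized IntS11, and 9.07 and 9.75 against 0.28 and 0.17 in the IntS9 set. CG5382 (3R:22364573-22365983), listed by RefSeq under the synonym ZFPL1, had 8.54 and 8.22 against 0.50 and 0.57, and 7.62 and 8.35 against 0.13 and 0.18 TPM. WT and mutant libraries did not overlap for either RNA. CG33331, listed under the synonym Tam41, and CG3792 differed by -4.84 ± 0.28 and -4.07 ± 0.15 on the log2 scale in the IntS11 set. PSMG1, Polr2M, CG5382 and CG3792 overlap another gene on the opposite strand and CG33331 one on the same strand, so reads of these pairs may not be fully separated. Such overlaps touched 42 members on the same strand and 231 on the opposite one. Among the 316 with neither, 176 were higher and 94 lower in the IntS11 set, and 209 and 74 in the IntS9 set.

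**Figure D3:**
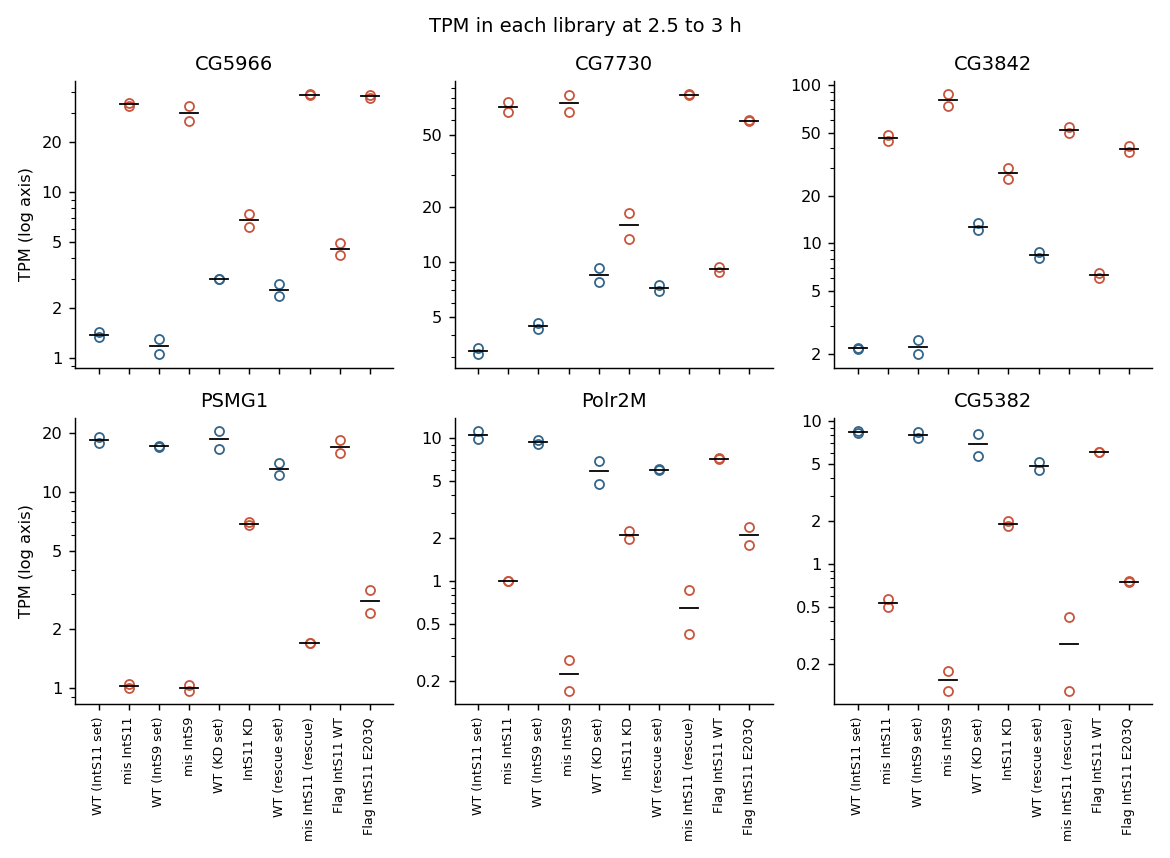
TPM in each library at 2.5 to 3 h (log axis, circles; bars are means of 2 libraries) for 3 members that rose and 3 that fell with mislocalized IntS11; WT in blue, other lines in red, KD for knockdown and mis for mislocalized. FlagIntS11WT lies near WT and FlagIntS11E203Q nearer to the mislocalized line in each panel, and the knockdown lies between its WT and the mislocalized lines.

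Among the 6 most abundant members, log2 differences ran from 0.23 to 1.76 in the IntS11 set and from 0.47 to 2.25 in the IntS9 set, all called higher. CG2852 had 133 and 139 TPM in WT against 400 and 410 in mislocalized IntS11, and 213 and 221 against 483 and 521 in the IntS9 set; its log2 differences were 0.89 ± 0.09 and 1.02 ± 0.06. CCT2, a subunit of the cytosolic chaperonin, differed by 0.72 ± 0.09 and Akr1B, an aldo-keto reductase, by 0.68 ± 0.12 in the IntS11 set; in the IntS9 set the differences were 1.13 ± 0.06 and 2.25 ± 0.11. CG11267, the mitochondrial co-chaperonin Hsp10, differed by 0.31 ± 0.10 and CG10576, the counterpart of human PA2G4, by 0.23 ± 0.08. CG45084 fell from 410 and 375 TPM to 1.22 and 1.82 TPM in the controls and rose by 1.76 ± 0.12 with mislocalized IntS11, but it lies on the transcript of BicC, and the authors' counting may have split reads between them. Marf1, a regulator of oocyte RNA, rose from 9.14 and 14.1 to 81.4 and 112 TPM (2.39 ± 0.15). The co-chaperone p23 did not pass the test in the IntS11 set (0.10 ± 0.08, edgeR adjusted p = 0.25). CCT8, another chaperonin subunit, was called lower (-0.44 ± 0.10) although its TPM went from 33.0 and 32.7 to 39.5 and 38.0. In the rescue set's mislocalized embryos it was called higher (0.53 ± 0.06, edgeR adjusted p = 5.1e-09), as in the knockdown (1.35 ± 0.12), and with mislocalized IntS9 it was not called (0.09 ± 0.06).

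The 93 members with a role known well enough to be grouped are described by group (the groups were formed after the values had been seen). Their counts stand beside 30.1% of all genes higher and 53.2% lower with mislocalized IntS11, and 40.4% and 43% with mislocalized IntS9, and with so few genes a group no direction is read as particular to it. Both Tudor proteins of the piRNA pathway were higher in both mislocalized sets: tapas rose by 2.01 ± 0.12 and 2.04 ± 0.08 on the log2 scale in the IntS11 and IntS9 sets, and Veneno by 1.56 ± 0.14 and 2.03 ± 0.09. All 9 members placed under lipid synthesis and transport were higher with mislocalized IntS9 and 6 of them with mislocalized IntS11, none lower. They include Orp8, a lipid transfer protein, and Cpes, which makes ceramide phosphoethanolamine (8.57 and 9.67 against 42.1 and 39.9 TPM in the IntS11 set). CG33331, listed under the synonym Tam41, was not placed in this group and was lower in both sets (-4.84 and -4.00 on the log2 scale). The absence of lower members thus depends on which genes were placed there. Of 5 ubiquitin genes, 4 were higher in each set, among them Usp30, a deubiquitinase of mitochondria in mammals, at 1.34 ± 0.10 and 1.91 ± 0.07.

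Of 5 RNA polymerase subunits and associated proteins, 4 were lower in both sets and in the rescue set, where 53.2%, 43% and 41.1% of all genes were lower. Polr1C, shared by polymerases I and III, and the polymerase III subunits Polr3A and Polr3D differed by -2.23, -2.34 and -2.76 on the log2 scale with mislocalized IntS11. The exception was Polr1F, at 0.16 ± 0.18 (edgeR adjusted p = 0.41) and 0.93 ± 0.12. Among genes of DNA repair and replication, 3 were higher and 4 lower in each set. Gcna, a germ cell nuclear protein that acts on DNA-protein crosslinks, had 6.24 and 6.52 TPM in WT and 34.8 and 34.5 TPM in mislocalized IntS11, whereas mus302 went from 10.2 and 11.3 to 2.20 and 2.21 TPM.

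Of 11 genes that charge tRNAs, 4 were higher and 5 lower in the IntS11 set and 6 and 4 in the IntS9 set. LeuRS, which charges leucine tRNA, rose by 0.73 ± 0.07 and 0.98 ± 0.06, and ValRS-m, its mitochondrial relative for valine, by 2.13 ± 0.15 and 2.03 ± 0.11. AIMP1, a scaffold of the synthetase complex in mammals, fell short of WT by -3.24 ± 0.19 and -3.02 ± 0.14. In RNA processing and modification 5 of 11 were higher and 5 lower with IntS11, and 5 and 4 with IntS9, from the cap methyltransferase homologue Pcif1 (1.33 ± 0.08) to the tRNA ligase RtcB (-2.70 ± 0.18).

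Of 11 genes of mitochondrial import and transport, 5 were higher and 3 lower with IntS11, and 6 and 3 with IntS9. Sfxn1-3, a mitochondrial amino acid carrier, stood beside MCU at the top (2.89 ± 0.14), and Tim23, of the inner membrane translocase, was lower (-1.44 ± 0.11). In amino acid and acyl-CoA breakdown, 4 of 10 were higher and 3 lower with IntS11, and 8 and 1 with IntS9. PCB, pyruvate carboxylase, had 1.13 and 1.24 TPM in WT and 14.0 and 14.3 TPM in mislocalized IntS11, while Hibch, of valine breakdown, went from 7.28 and 7.29 to 1.96 and 1.58 TPM. PIG-L, of GPI anchor synthesis, rose by 2.69 ± 0.13 in a group of 10 with 1 higher and 4 lower in the IntS11 set and 6 and 3 in the IntS9 set. PIG-P and Tcs6, which share a transcript, had identical TPM in every library and count as 1 measurement. Protein folding gave 3 higher and 4 lower of 8 with IntS11 and 4 and 3 with IntS9, and TORC1 and amino acid sensing 1 and 3 of 4 in both.

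**Figure D4:**
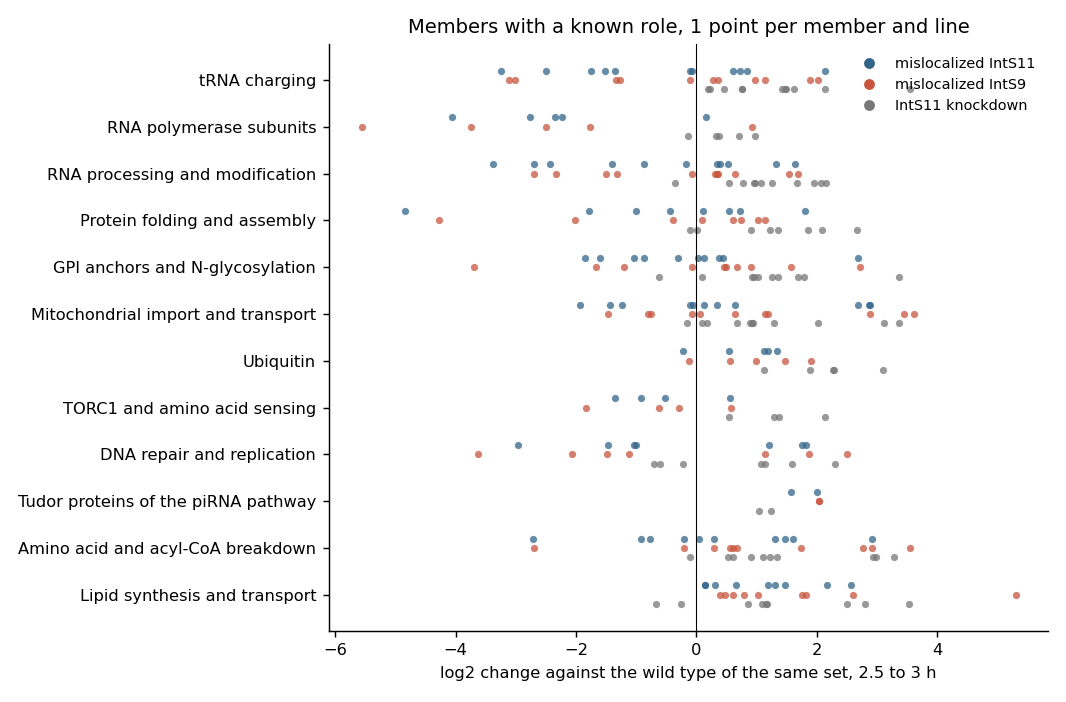
log2 difference from the WT of the same set at 2.5 to 3 h for the 93 grouped members, 1 point per member, in mislocalized IntS11 (blue), mislocalized IntS9 (red) and the IntS11 knockdown (grey). The genes placed in the lipid and Tudor groups lie on the right of zero in both mislocalized lines. In those lines 4 of the 5 RNA polymerase genes lie on the left, and most knockdown points lie on the right.

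The members that rose and those that fell short differed in measures the comparison did not use. Members higher with mislocalized IntS11 had longer transcripts (median 2182 bases, against 1625.5 for those lower), longer 3′ UTRs (397 against 200.5 bases) and longer 5′ UTRs (236 against 118.5 bases). Across members, the log2 difference in the IntS11 set and the length of the 3′ UTR had a Spearman's rho of 0.30 (n = 580), beside 0.19 over 8801 genes; in the IntS9 set the values were 0.19 and 0.09, and in the rescue set 0.25 and 0.07. In the knockdown the sign was the opposite, at -0.09 over members and -0.21 over all genes. These are descriptions across genes that share libraries. The share on the X chromosome was alike, 23.2% and 24.0%. In the WT of the IntS9 set, which shared no library with the split, members of the higher class fell from 1 to 1.5 h to 2.5 to 3 h by a median log2 of -2.62 and those of the lower class by -1.55. In mislocalized IntS9 embryos the order was turned, with medians of -0.85 and -3.04. In the rescue set's WT the medians were -2.65 and -2.25, and in its mislocalized embryos -0.95 and -3.08.

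The lines differed less at 1 to 1.5 h. At that window the median log2 difference from WT was 0.09 in the IntS11 set, 0.06 in the IntS9 set and 0.06 in the rescue set, with 174 members higher and 78 lower in the first, 35% and 17.8% of members in the second, and 186 and 99 in the third. The shares of all genes were 22.7% and 24.6%, 31.3% and 28.2%, and 34.7% and 18.7%. At 0 to 0.5 h, 108 members were higher and 29 lower in the IntS11 set (16.8% and 14.8% of all genes), and 156 and 89 in the IntS9 set (26% and 26.5%). The direction of these small differences rested on the scaling, since on TPM 527 members were higher and 23 lower in the IntS11 set at 1 to 1.5 h (70.5% and 13.1% of all genes), and 99 and 365 in the rescue set (25.2% and 48.9%). Scaling by total counts took the share of higher calls among all calls in the rescue set at this window from 64.9% to 47.7%. At 0 to 0.5 h the 108 of the IntS11 set became 45 without the second mislocalized library, and 61 and 70 without the first and second WT library. Tested as a difference of clearance, the fall from 1 to 1.5 h to 2.5 to 3 h was smaller for 260 members and larger for 196 in mislocalized IntS11 (22.8% and 38% of all genes), 348 and 166 in mislocalized IntS9 (30.2% and 36%), and 381 and 118 in the rescue set's mislocalized embryos (29.9% and 34.9%). Within the mutants most members still fell, 549 of 580 with mislocalized IntS11 (34.3% of all genes), 524 with mislocalized IntS9 (36%) and 549 in the rescue set (33.2%), with median log2 changes of -1.99, -1.80 and -1.80. Total counts moved the share of higher calls among all calls from 37.5% to 53.4% for the difference of clearance in the IntS11 set, from 39.0% to 52.5% for the fall within mislocalized IntS11, and from 47.6% to 61.3% for that in the rescue set.

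The rescue set asked whether IntS11 added back restores the pattern and whether the E203Q form does. With FlagIntS11WT, 405 members were lower and 117 higher than in mislocalized embryos at 2.5 to 3 h (39.3% and 39.1% of all genes; median log2 -1.14). From 1 to 1.5 h to 2.5 to 3 h, 578 members fell with FlagIntS11WT (41% of all genes fell and 39.4% rose) and 567 fell and 1 rose with FlagIntS11E203Q (36.2% and 37.7%). Against WT, FlagIntS11WT differed by a median of 0.01, with 113 members higher and 84 lower (28.4% and 16.1% of all genes). That count of higher members was 51 with DESeq2 and 61 with total counts, which also took the share of higher calls among all calls from 63.8% to 46.3%. FlagIntS11E203Q was above FlagIntS11WT for 346 members and below it for 147 (37.4% and 37.7% of all genes; median 0.65). It lay below the mislocalized line for 379 members and above it for 36 (28% and 25.5% of all genes; median -0.46). The first zygotic wave markers summed to 6307 and 6659 TPM with FlagIntS11WT, 2455 and 2326 TPM with FlagIntS11E203Q, and 735 and 757 TPM in the mislocalized embryos.

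The split of the separate IntS11 set was seen here as well. Members higher there had a median log2 of 1.86 in mislocalized against WT embryos, -1.96 with FlagIntS11WT against mislocalized, and 1.4 with FlagIntS11E203Q against FlagIntS11WT. For members lower there the medians were -0.58, 0.67 and -0.84. The same 2 classes differed from WT by medians of -0.04 and 0.11 with FlagIntS11WT. Of the 297 higher members, 287 were higher with FlagIntS11E203Q than with FlagIntS11WT (96.6% of the first list, 82.9% of the second), and of the 196 lower members 143 were lower (73.0% and 97.3%).

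**Figure D5:**
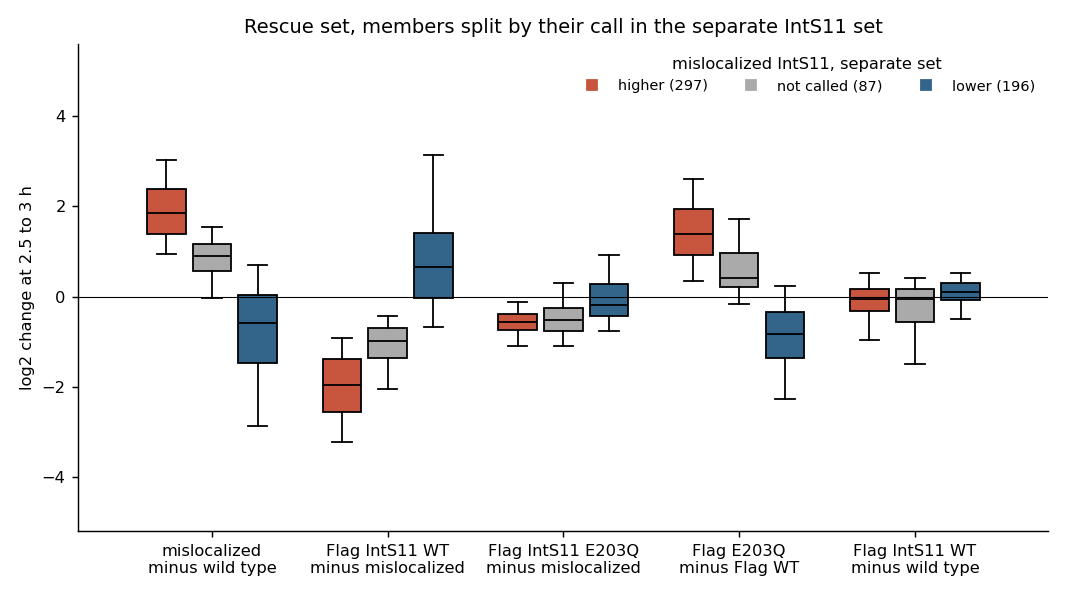
log2 differences within the rescue set at 2.5 to 3 h for members higher (297), not called (87) or lower (196) with mislocalized IntS11 in the separate set; boxes give the median and quartiles, whiskers the 5th and 95th percentiles. The higher and lower classes lie on opposite sides of zero in the first comparison (medians 1.86 and -0.58), change sides with FlagIntS11WT (-1.96 and 0.67), and lie near zero when FlagIntS11WT is set against WT.

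CG5966 showed the pattern without overlap between the 2 lines with low and the 2 with high levels. It had 2.80 and 2.36 TPM in WT, 39.1 and 38.5 in mislocalized embryos, 4.16 and 4.97 with FlagIntS11WT and 38.5 and 37.0 with FlagIntS11E203Q. FlagIntS11E203Q exceeded FlagIntS11WT by 2.99 ± 0.08 on the log2 scale (edgeR adjusted p = 1.8e-20) and differed from the mislocalized line by 0.02 ± 0.06 (adjusted p = 0.79). PSMG1 was the reverse, with 14.0 and 12.2 TPM in WT, 1.69 and 1.70 in mislocalized embryos, 15.8 and 18.3 with FlagIntS11WT and 3.15 and 2.42 with FlagIntS11E203Q. For Polr2M, FlagIntS11E203Q lay between, 1.71 ± 0.24 above the mislocalized line and -1.90 ± 0.15 from FlagIntS11WT. CG8323, a mitochondrial carrier family gene that overlaps CG18327, and CG34001, which overlaps hay, were among the extremes of this comparison, at 3.60 and -3.36. At 1 to 1.5 h FlagIntS11E203Q and FlagIntS11WT differed little, with 21 members higher and 226 lower (19.4% and 26.2% of all genes; median -0.15). Scaled by total counts, 50 were higher, and the share of higher calls among all calls went from 42.5% to 67.4%.

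In the knockdown the members fell less than in WT, while their level against WT at 2.5 to 3 h depended on the scale, with 29 lower in edgeR and 274 lower on TPM. Within knockdown embryos 433 members fell and 35 rose between 1 to 1.5 h and 2.5 to 3 h (median log2 -0.97; 23.9% of all genes fell and 29.4% rose), against 570 that fell in its WT (median -2.15). The fall was smaller than in WT for 419 members and larger for 24 (29% and 27.7% of all genes; median difference 1.33). With DESeq2's size factors 37.5% of all calls of this difference, over all genes, were higher, against 51.1%. On TPM the median ratio of the windows was 0.568 in the knockdown and 0.172 in its WT, and 426 members fell and 61 rose without overlap (25.2% and 46.2% of all genes). The higher and lower classes of the IntS11 set fell by medians of -0.45 and -1.60 in the knockdown, and by -2.14 and -2.11 in its WT.

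Compared with WT at 2.5 to 3 h, 410 members were higher in the knockdown and 29 lower (39.7% and 36% of all genes; median log2 1.13). Of the 288 members higher in all 3 mislocalization comparisons, 252 were higher in the knockdown and 6 lower. Of the 112 lower in all 3, 16 were lower, 35 higher and 61 not called. The 7SL RNA took a larger share of knockdown counts, and its part in the difference between the scales was not tested. On TPM 199 members were higher and 274 lower (13.8% and 74.7% of all genes), and 114 of the 410 had lower TPM, yet the members' median lay 1.03 above that of all genes on TPM and 1.05 above it in edgeR. The split over all genes also moved with the scale, from 52.4% of all calls higher to 40.0% with total counts, where 341 members were higher and 53 lower.

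On TPM, levels in the knockdown were below WT from 0 to 0.5 h on, in members and in all genes: the median log2 ratio of TPM at 0 to 0.5 h was -2.01 for members and -1.93 for all genes, while in edgeR the members' median was 0.05. The members' median was 8.32 TPM in the knockdown and 32.3 TPM in WT at 0 to 0.5 h, 8.50 and 32.4 TPM at 1 to 1.5 h, and 4.55 and 5.05 TPM at 2.5 to 3 h. In edgeR, 243 members were higher and 212 lower at 0 to 0.5 h (39.5% and 29.6% of all genes), and 222 and 232 at 1 to 1.5 h (41.7% and 31%). On TPM 552 and 558 were lower at these windows (75.7% and 74.1% of all genes) and 12 and 10 higher (12.8% and 15.4%).

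CG31075, an aldehyde dehydrogenase family gene, had 1.67 and 1.68 TPM in WT and 19.2 and 19.0 in the knockdown at 2.5 to 3 h. It was higher by 4.84 ± 0.23 in edgeR, and had 0.73 and 0.46 against 1.29 and 1.45 TPM in the IntS11 set. CG45084, on the transcript of BicC, had 1.34 and 1.06 TPM in WT and 7.38 and 6.72 in the knockdown. CG3164, an ABC transporter family gene, had 23.8 and 22.6 TPM in WT and 2.49 and 2.03 in the knockdown (-2.05 ± 0.13), but 0.37 to 3.66 TPM in the WT of the other 3 sets. Its level in the knockdown set's WT thus stood apart, as the markers of older embryos did. CG15820 was at 0 TPM in both WT libraries and at 1.04 and 0.84 in the knockdown. CG14545 went from 0.78 and 0.49 to 6.22 and 7.03 TPM. PSMG1 and Polr2M, among the lowest with mislocalized IntS11, differed from WT by -0.10 ± 0.19 and -0.13 ± 0.23 in the knockdown (edgeR adjusted p = 0.63 for each). These values hold on the edgeR scale only, since the members' median log2 difference here was 1.13 in edgeR and -0.20 on TPM. They do not place either RNA at its WT level on TPM.

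The effects of mislocalized IntS11 and IntS9 at 2.5 to 3 h were also set against each other. In a joint fit, 53 members had a higher effect with IntS11 and 120 with IntS9 (17.3% and 15.4% of all genes; median difference -0.16). The 53 became 33 without the first mislocalized IntS11 library, 31 without the first mislocalized IntS9 library and 32 without the second WT library of the IntS9 set. tut, a partner of the translational repressor Bgcn in the male germline, rose from 1.07 and 1.23 to 17.6 and 17.3 TPM with mislocalized IntS11, and had 2.46 and 2.39 TPM in WT and 2.25 and 2.72 with mislocalized IntS9. The effects differed by 3.61 ± 0.24 on the log2 scale (edgeR adjusted p = 4.8e-12). tut was also higher in the rescue set's mislocalized embryos, at 26.6 and 30.2 TPM against 7.09 and 6.24 TPM in WT, and in the knockdown, at 12 and 9.04 against 3.41 and 6.42 TPM. Fatp3 differed the other way, by -2.53 ± 0.32 (adjusted p = 5.7e-07), and CG12811, which overlaps mtTFB2, by -3.13 ± 0.73 (adjusted p = 0.0017).

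Other maternal RNAs were compared at 2.5 to 3 h in the same way, where 30.1% of all genes were higher with mislocalized IntS11, 40.4% with mislocalized IntS9, 40.8% in the rescue set and 39.7% in the knockdown. Of 10 maternal markers 9 were higher with mislocalized IntS11, 10 with mislocalized IntS9, 9 in the rescue set and 10 in the knockdown. Of 29 genes for RNA decay and repression (28 tested in the IntS11 set), 21 were higher and 3 lower with mislocalized IntS11, 22 and 4 with mislocalized IntS9, 19 and 2 in the rescue set, and 18 and 8 in the knockdown. The shares of all genes that were lower were 53.2%, 43%, 41.1% and 36%. On TPM the sum of this list was lower in the knockdown, at 905 and 591 against 1324 and 1316 TPM in its WT. smg, which recruits the deadenylase to maternal RNA, was higher by 3.14 ± 0.12 and 2.93 ± 0.07 in the first 2 comparisons, and twin, a catalytic subunit of that deadenylase, by 1.20 ± 0.07 and 1.22 ± 0.05. The 3 genes lower with mislocalized IntS11 belong to the same deadenylase complex: Not11 (-3.57 ± 0.23), Not10 (-0.83 ± 0.11) and Not3 (-0.38 ± 0.12). With mislocalized IntS9 they were lower too (-4.51, -0.30 and -0.24), as was Not1 (-0.28), which was higher with IntS11 (0.28). The complex did not move as 1, since besides twin its members Pop2 (0.56 and 0.78) and Rcd-1 (0.30 and 0.38) were higher in both sets. In the knockdown Not11 (-1.63) and Not3 (-0.76) were lower and Not10 was higher (1.82). The 719 named RNAs that met the same rule moved as the members did, with 411 higher and 233 lower for IntS11, 457 and 208 for IntS9, and 525 and 45 in the knockdown. Of the 870 unnamed RNAs that controls kept, 140 were higher and 488 lower for IntS11, 287 and 343 for IntS9, and 387 and 233 in the knockdown.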

How the data were processed

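Total RNA was extracted with TRIzol, depleted of rRNA and made into strand-specific libraries, per the labels' protocols. Per the submitters' processing notes, RSEM 1.3.1 and STAR 2.7.10a were among the tools and dm6 was the build; Trimmomatic 0.39 and DESeq2 1.40.2 are listed as well. The authors deposited estimated counts, TPM and FPKM per gene for 72 libraries, and the deposited FPKM were not used. Members and gene lists were chosen with earlier results of these data known.

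Estimated counts were rounded and tested with edgeR 4.0.16 (R 4.3.3; TMM, filterByExpr, robust quasi-likelihood), 1 fit per set with all its libraries, Benjamini-Hochberg over all genes, threshold 0.05; SEs are the absolute log2 change over the root of F. No test was given for the α-amanitin set, which chose the members. Named members are the 6 highest in controls, the extremes of 4 comparisons, 6 with a symbol, the neighbours of each threshold and the 3 largest differences between lines; grouped members were added. Overlaps and lengths come from Ensembl release 115 (longest transcript). Alternatives were DESeq2 1.42.0, its size factors, total counts, no filter, the replicate block, the compared groups alone, leaving out each library, and TPM. The fits were tested on simulated data. Replicates differed beyond sampling noise in all 36 groups (chi-square per degree of freedom of 1.16 to 32.7, where 1 is sampling noise alone), so no library was counted again. The excess was small in the WT of the knockdown set, at 1.16, 1.39 and 1.17 from the first window to the last. It was largest at 2.5 to 3 h in the knockdown (32.7), the controls the rule used (30.1) and mislocalized IntS9 (27.1).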

Additional observations from a re-analysis of the deposited data

Results flagged for a closer look

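The effect of mislocalized IntS11 minus that of mislocalized IntS9 at 2.5 to 3 h differed in the joint edgeR fit for 173 of the 580 members. Of all genes tested, 17.3% had a higher effect with IntS11 and 15.4% a lower one, so the count is not read as particular to the members. The largest differences were those of tut (3.61), CG12811 (-3.13) and Fatp3 (-2.53), on the log2 scale. tut rose with IntS11 and was not called with IntS9, whereas Fatp3 rose in both, further with IntS9.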

How the results depend on the processing

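Of 403 alternative values for 35 counts of members, 370 lay within 1.5 times the reported count, and 23 counts did so under every alternative run; the 380 values for 37 single-member results, recomputed from counts alone, kept their direction, 12 losing and 11 gaining the call. On TPM, which was not run for single members, CCT8 is turned, as given above. It is among the 13 members called lower with higher TPM in the IntS11 set at 2.5 to 3 h. In the knockdown at that window, 114 members called higher had lower TPM. Counts that moved were mostly of small differences or of the knockdown's level, and the cause was not tested beyond the scales given. On deposited TPM (added after seeing the data, groups not overlapping) counts of members are given with the share of all genes in brackets. Members higher at 1 to 1.5 h were 527 for mislocalized IntS11 (70.5%) and 358 for mislocalized IntS9 (49.3%). For the knockdown they were 199, 10 and 12 at 2.5 to 3, 1 to 1.5 and 0 to 0.5 h (13.8%, 15.4% and 12.8%). In the rescue set they were 234 for FlagIntS11WT against WT at 2.5 to 3 h (52.7%). At 1 to 1.5 h that set gave 99 for mislocalized IntS11 (25.2%) and 157 for FlagIntS11E203Q against FlagIntS11WT (45.3%). Members lower over the first hour were 521 in the IntS11 set's WT (39.8%) and 156 in the knockdown set's WT (12.4%). For the counts that follow, the share of all genes under the same setting is not given. Calls over all genes also moved with the scale, as given above, so these counts are not read as changes of the members alone. With total counts members higher were 126 and 126 for the knockdown at 1 to 1.5 and 0 to 0.5 h, 61 for FlagIntS11WT against WT, 113 for the rescue set's mislocalized embryos and 50 for FlagIntS11E203Q at 1 to 1.5 h. DESeq2's size factors gave 60 for FlagIntS11WT against WT and 107 for the mislocalized rescue embryos at 1 to 1.5 h, and DESeq2 itself 51 and 89. Fitting only the compared groups gave 57 for FlagIntS11WT against WT and 75 for the first hour in the knockdown set's WT, which was 23 with no filter. Leaving out 1 library, so that the lone library of that arm is assumed to vary like the others, gave 45 to 100 for mislocalized IntS11 at 0 to 0.5 h (108 with all), 18 to 54 for FlagIntS11E203Q against FlagIntS11WT at 1 to 1.5 h (54 without the first FlagIntS11WT library), 0 to 3 for the first hour in the knockdown set's WT and 31 to 44 for the difference between IntS11 and IntS9. With the replicate number as a block, members higher with mislocalized IntS11 at 2.5 to 3 h were 301, and all 35 counts stayed within 1.5 times. Same-numbered libraries did not deviate together throughout (pair correlations of -0.31 to 0.78), so the numbers are taken as names. The IntS11 set showed the most of it, with 8 of 15 pairs of groups over 0.1 (median 0.14, highest 0.78). The medians in the IntS9, rescue and knockdown sets were 0.003, 0.006 and -0.05. The knockdown set's WT had the lowest depth, and the part of depth in its counts was not tested.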

Other observations

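In larvae, which no comparison above used, the median member stood at 10.8, 6.5 and 4.11 TPM in WT at 24, 48 and 72 h after egg laying, and at 11.5, 7.59 and 4.95 TPM in the zygotic mutant. At least 10 TPM was reached by 300, 200 and 123 members in WT. Members made up 1.43%, 0.911% and 0.543% of all TPM in WT larvae, against 3.25% in control embryos at 1 to 1.5 h and 0.325% at 2.5 to 3 h.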
